A study of Mus musculus with 32 samples.

Results

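The genes of the tricarboxylic acid (TCA) cycle, of the pyruvate dehydrogenase complex that feeds it and of the shuttle and refilling reactions beside it were followed in mouse cardiac ventricle. The set holds 31 named genes among the 13660 genes with a probe set of a single symbol. Each gene is given by 1 probe set, chosen among those that are not array controls. It is the one with the highest mean log2 signal on the first of 2 Affymetrix array types, or else on the second. The first type holds 29 of the genes, and the second alone holds Pdk2 and Pdp1. Total RNA was measured in 3 samples from mice with a cardiac specific AT1 transgene in cardiac failure, 8 samples from mice with the same transgene in cardiac hypertrophy, and 5 samples from wild type mice with a normal heart, on each array type. AT1 is not spelled out in the labels; in heart research the letters commonly mean the type 1 receptor of angiotensin II. No promoter for the transgene is named, nor an age, sex or strain. Whether replicates were separate animals is not stated either, and p-values here reflect only how far these samples vary, which may be technical.

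The TCA cycle runs in the mitochondrial matrix, where it oxidises acetyl-CoA and hands electrons to the respiratory chain. Acetyl-CoA comes from fatty acid oxidation or from pyruvate through the pyruvate dehydrogenase complex, which pyruvate dehydrogenase kinases switch off by phosphorylation and phosphatases switch on. The heart depends on this cycle for nearly all of its ATP, and the malate-aspartate shuttle carries cytosolic reducing equivalents into its mitochondria.

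No gene of the set passed the test in any comparison. The group mean lay inside the range of the 5 wild type arrays for 19 of 26 tested genes in failure and for 22 in hypertrophy. No such share over all tested probe sets is given here, and a mean can lie inside that range despite a moderate shift. These counts therefore do not show that the set was unchanged. The 3 genes nearest to the threshold in failure against wild type were Cs (citrate synthase), Idh3a (an isocitrate dehydrogenase subunit) and Pcx (pyruvate carboxylase). Cs and Idh3a had lower means in failure, and the chosen probe set of Pcx had a higher mean. Most control probe sets that also target Pcx had a lower mean in failure. Pdk4, a kinase that inhibits pyruvate dehydrogenase, had the widest differences of the set, and also the widest spread within every group. Signals are linear intensities as deposited, a difference is the difference of group means of log2 signal, and a probe set was called when its adjusted p was under 0.05. The test was limma's moderated test on each array type, two-sided, with Benjamini-Hochberg adjustment over all probe sets tested. Of the set, 26 genes reached the median of their own array on at least 3 arrays and were tested, and Aco1, Idh1, Idh3b, Mdh1 and Got1 did not and were not tested.

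The arrays carried the RNA of heart muscle: all 13 cardiomyocyte markers listed were measured and tested, and their summed signal was 65586 to 66144 in failure, 55892 to 72570 in hypertrophy and 61943 to 70213 in wild type. The median signal of an array was 91.8 to 120.9 for the first type and 69.3 to 80.6 for the second. The ratio of the 5' to the 3' control probe set of Gapdh, which falls when RNA is degraded or copied incompletely, was 0.922 to 1.11 in failure and 0.806 to 0.955 in wild type on the first type. It was 0.468 in hypertrophy replicate 6 and 0.0487 in hypertrophy replicate 7, against 0.868 to 1.09 in the other hypertrophy arrays. The same ratio for Actb averaged 0.962 ± 0.175 in failure (SD, n = 3), 0.701 ± 0.204 in hypertrophy (SD, n = 8) and 0.623 ± 0.0818 in wild type (SD, n = 5). The summed signal of 10 fibroblast markers, all measured, was 9137, 9494 and 5037 in failure, 3572 to 8003 in hypertrophy and 4652 to 5733 in wild type. That of 4 atrial markers, all measured, was 4093, 4360 and 5940 in failure, above the wild type range of 1265 to 3391, with 986 to 4659 in hypertrophy. That of the 2 measured of 4 erythroid markers was 3892, 5142 and 10383 in failure, 1935 to 7722 in hypertrophy and 4457 to 6471 in wild type. In bulk samples such as these, fewer cells of a type and less RNA per cell cannot be told apart. Nor does the sum of the atrial markers (Myl7, Myl4, Sln and Nppa) tell atrial tissue from expression of these genes in the ventricle.

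Citrate synthase, which condenses acetyl-CoA with oxaloacetate at the entry of the cycle, was the gene of lowest p in failure against wild type. The signal of Cs was 1103, 1219 and 1587 in failure, ran from 1128 through a median of 1433 to 2066 in hypertrophy, and was 1600, 1728, 1870, 1697 and 1772 in wild type. All 3 failure arrays lay below all 5 wild type arrays, the highest of them by little, while the hypertrophy arrays ran across the ranges of both. The log2 difference was -0.43 ± 0.16 in failure against wild type (SE, 95% interval -0.769 to -0.085, adjusted p = 0.337), -0.23 ± 0.13 in hypertrophy against wild type (adjusted p = 0.96) and -0.20 ± 0.15 in failure against hypertrophy (adjusted p = 0.707). A dimmer Cs probe set on the second array type gave -0.59 ± 0.29 in failure against wild type (adjusted p = 0.425), with overlapping groups. Without failure replicate 1 the difference of the main Cs probe set was -0.316, and without failure replicate 3 it was -0.578. With the Actb ratio as a covariate, which on this array type was higher in all failure than wild type arrays, it was -0.207.

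The start region of Cs is shown because this gene was nearest to a call, and that of Pdk4 because its differences were the widest. Each sequence covers 250 bases before and 50 after the gene's start in RefSeq on GRCm38.p6, read 5' to 3' along the gene, with CpG dinucleotides in capitals. The region of Cs is chr10:128337477-128337776 on the plus strand, and that of Pdk4 is chr6:5496229-5496528 on the minus strand.
Cs: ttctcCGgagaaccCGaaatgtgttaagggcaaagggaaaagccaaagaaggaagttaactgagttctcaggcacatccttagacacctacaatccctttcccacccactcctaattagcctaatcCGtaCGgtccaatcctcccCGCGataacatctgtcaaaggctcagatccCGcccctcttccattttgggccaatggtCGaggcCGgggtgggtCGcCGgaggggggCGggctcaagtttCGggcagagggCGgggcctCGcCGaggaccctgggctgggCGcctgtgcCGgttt
Pdk4: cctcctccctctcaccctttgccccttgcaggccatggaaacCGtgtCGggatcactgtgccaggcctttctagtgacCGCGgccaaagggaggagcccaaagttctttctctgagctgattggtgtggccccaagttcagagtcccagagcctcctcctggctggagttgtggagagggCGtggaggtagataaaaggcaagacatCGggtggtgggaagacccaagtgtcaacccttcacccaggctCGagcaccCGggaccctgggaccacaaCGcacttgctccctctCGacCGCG
The Cs region has 58.7% G and C and 18 CpG, and the Pdk4 region 60.7% and 12 CpG. The 28 genes of the set with such a region in the table had a median of 60.8% G and C and 19.25 CpG, and Idh3a, Sdhc and Pdp1 were not in it. The 10925 genes of the arrays with a region had medians of 59.8% and 19. The letters TNAAGGTCA, the element that estrogen-related receptors are known to bind, were searched on both strands with N as any base, as the single motif searched. They occurred in 1 of the 28 regions, that of Sdhd (3.57%), and in 114 of the 10925 (1.04%). A match describes these letters only, and neither group of values shows a site or a cause.

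Of the enzymes that turn citrate into 2-oxoglutarate, 4 genes with Cs included were tested, and 3 of them had negative differences in failure against wild type, or 4 under median scaling, where Idh2 turned negative. Idh3a encodes the catalytic subunit of the NAD-dependent isocitrate dehydrogenase. Its signal was 182, 249 and 327 in failure, 213 to 443 with a median of 299 in hypertrophy, and 314, 291, 361, 344 and 342 in wild type. Failure replicates 1 and 2 lay below every wild type array and failure replicate 3 lay within them. The log2 difference of Idh3a was -0.42 ± 0.19 in failure against wild type (SE, 95% interval -0.831 to -0.014, adjusted p = 0.448), -0.13 ± 0.15 in hypertrophy against wild type (adjusted p = 0.976) and -0.30 ± 0.18 in failure against hypertrophy (adjusted p = 0.607). Without failure replicate 1 the first of these was -0.207, and without failure replicate 3 it was -0.628.

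Idh3g encodes a regulatory subunit of the same enzyme. Its signal was 575, 691 and 772 in failure, 466 to 895 with a median of 686 in hypertrophy, and 639, 690, 890, 809 and 720 in wild type, so that the groups overlapped. Its log2 difference was -0.14 ± 0.17 in failure against wild type and -0.15 ± 0.13 in hypertrophy against wild type (SE, adjusted p = 0.828 and 0.965). Idh2, the mitochondrial NADP-dependent isocitrate dehydrogenase, had signals of 2346, 2881 and 3426 in failure, 2148 to 3568 with a median of 2502 in hypertrophy, and 2698, 2623, 3008, 2524 and 3290 in wild type. The failure arrays of Idh2 lay on both sides of the wild type values, and its log2 difference was 0.02 ± 0.17 (SE, 95% interval -0.347 to 0.383). Aco1, the cytosolic aconitase that also acts as an iron regulatory protein, had 91.4 to 121 in failure, 69.2 to 104 in hypertrophy and 67 to 106 in wild type. Idh1, the cytosolic NADP-dependent enzyme, had 60.2 to 64 in failure, 47.1 to 94.5 in hypertrophy and 50.2 to 86 in wild type. Idh3b, the remaining subunit of the NAD-dependent enzyme, had 42.4 to 48.4 in failure, 23.4 to 48.2 in hypertrophy and 32.4 to 44.3 in wild type, close to the floor of 39.5 applied before the logarithm. The groups of Aco1, Idh1 and Idh3b overlapped, and none of them was tested.

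The 2-oxoglutarate dehydrogenase complex makes succinyl-CoA, and its 3 genes had small negative differences in failure against wild type, from -0.22 (Dlst) to -0.05 (Dld), of which that of Dlst alone stayed negative without failure replicate 1. Without failure replicate 3 they ran from -0.579 (Dlst) to -0.131 (Dld). Ogdh, its first component, had signals of 1822, 2057 and 2305 in failure, 1342 to 2829 with a median of 1724 in hypertrophy, and 2371, 1921, 2238, 2231 and 2110 in wild type. The failure arrays mixed with the wild type arrays and the hypertrophy arrays reached beyond them at both ends. The log2 difference of Ogdh was -0.08 ± 0.21 in failure and -0.21 ± 0.16 in hypertrophy, each against wild type (SE, adjusted p = 0.939 and 0.964). A further Ogdh probe set on the second array type gave 0.30 ± 0.22 and 0.16 ± 0.17 for the same comparisons, of the other sign. Dlst, the succinyltransferase, had 300 to 641 in failure, 247 to 553 in hypertrophy and 348 to 661 in wild type, and its further probe set gave 0.20 ± 0.38 in failure against wild type where the main probe set gave -0.22 ± 0.28. Dld, the dihydrolipoamide dehydrogenase shared with the pyruvate dehydrogenase complex, had 497 to 598 in failure, 264 to 840 in hypertrophy and 427 to 720 in wild type.

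Succinyl-CoA ligase, the step of the cycle that makes ATP or GTP directly, had negative differences in failure against wild type for all 3 of its genes, though that of Suclg2 turned positive with the Actb ratio as a covariate. Suclg1, the shared alpha subunit, had 667, 751 and 977 in failure and 836, 795, 1236, 1077 and 1404 in wild type, with 624 to 1512 in hypertrophy. Failure replicates 1 and 2 of Suclg1 lay below all wild type arrays and replicate 3 within them. Its log2 difference was -0.41 ± 0.25 (SE, adjusted p = 0.617). Sucla2, the beta subunit of the ATP-forming enzyme, had -0.34 ± 0.26, and Suclg2, that of the GTP-forming enzyme, -0.09 ± 0.16, both in failure against wild type.

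Succinate dehydrogenase, which is also complex II of the respiratory chain, had 2 negative and 2 positive differences in failure against wild type among its 4 subunits, or 3 negative under median scaling. Sdhb, the iron-sulfur subunit, had signals of 1973, 2255 and 2687 in failure, 1629 to 3285 with a median of 2431 in hypertrophy, and 2463, 2337, 3150, 2696 and 3210 in wild type. Again failure replicates 1 and 2 were below the wild type arrays and replicate 3 was among them. The log2 difference of Sdhb was -0.27 ± 0.19 in failure and -0.21 ± 0.15 in hypertrophy, each against wild type (SE, adjusted p = 0.675 and 0.96). A further Sdhb probe set gave -0.52 ± 0.33 in failure against wild type. Sdhc, a membrane anchor, had -0.29 ± 0.19 with 1201 to 2034 in failure, against 1549 to 2328 in wild type. Without failure replicate 1 the differences in failure against wild type were -0.159 for Sdhb and -0.114 for Sdhc. Without failure replicate 3 they were -0.382 and -0.494. Sdha, the flavoprotein subunit, had 0.11 ± 0.25 and Sdhd, the other anchor, 0.07 ± 0.19. In Sdha the failure arrays were close together at 182, 184 and 189, inside the wild type range of 135 to 213.

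Fumarase (Fh1) hydrates fumarate to malate. Its signal was 626, 737 and 807 in failure, 648 to 1202 with a median of 845 in hypertrophy, and 899, 713, 1015, 879 and 1122 in wild type. Wild type replicate 2 lay below failure replicates 2 and 3, and the other wild type arrays lay above all failure arrays. The log2 difference of Fh1 was -0.35 ± 0.19 in failure against wild type (SE, adjusted p = 0.559) and -0.26 ± 0.18 in failure against hypertrophy (adjusted p = 0.671). Mdh2, the mitochondrial malate dehydrogenase, had 2625, 2863 and 2943 in failure, 2014 to 3419 with a median of 2880 in hypertrophy, and 2680, 2565, 3164, 3009 and 3000 in wild type. Its groups lay on top of each other, with a log2 difference of -0.03 ± 0.14 in failure against wild type (SE, 95% interval -0.334 to 0.265) and -0.03 ± 0.11 in hypertrophy against wild type (-0.268 to 0.199).

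**Figure D1:**
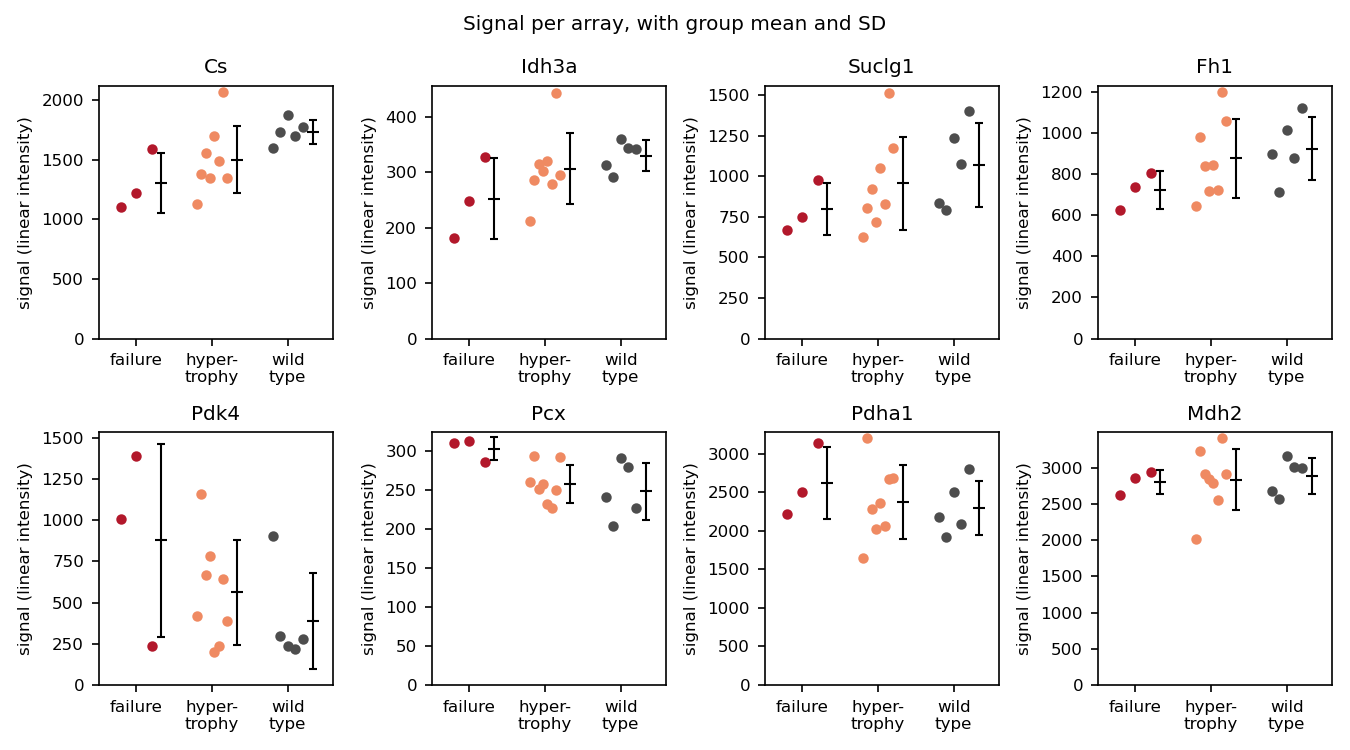
Signal (linear intensity, vertical axis from 0) on each array of the first array type for 8 genes, with failure, hypertrophy and wild type from left to right, points for arrays and bars for the group mean and SD. The 3 failure arrays of Cs sit between 1103 and 1587, below all wild type arrays, and the points of Pdk4 spread from 202 to 1385 over the groups.

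The pyruvate dehydrogenase complex itself was measured through Pdha1 and Pdhb, the subunits of its first component, and Dlat, its acetyltransferase, besides the shared Dld. Pdha1 had signals of 2226, 2500 and 3138 in failure, 1654 to 3200 with a median of 2324 in hypertrophy, and 2187, 1924, 2504, 2094 and 2800 in wild type. The groups overlapped widely and the log2 difference was 0.19 ± 0.19 in failure and 0.03 ± 0.15 in hypertrophy, each against wild type (SE, adjusted p = 0.782 and 0.992). Pdhb had 1494 to 1937 in failure and 1518 to 2156 in wild type, a log2 difference of -0.17 ± 0.15, and its further probe set gave 0.30 ± 0.24. Dlat had 408, 476 and 750 in failure and 627 to 726 in wild type, so that its failure arrays lay on both sides of the wild type range. Its 3 probe sets gave -0.34 ± 0.24, -0.30 ± 0.19 and 0.02 ± 0.17 in failure against wild type.

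The regulators of the complex, 3 kinases (Pdk1, Pdk2, Pdk4) and the phosphatase Pdp1, had positive differences in failure and in hypertrophy against wild type, 4 of 4 in each, none of which passed the test. That of Pdp1 in failure, 0.05 ± 0.11, turned negative under quantile scaling, median scaling and the Actb covariate and without wild type replicate 4, and that of Pdk1 in hypertrophy, 0.10 ± 0.15, turned negative without hypertrophy replicates 6 and 7, with the Gapdh covariate and with a replicate block. Pdk4, the kinase isoform that fatty acids and fasting are known to induce in muscle and heart, had signals of 1008, 1385 and 236 in failure, 202 to 1160 with a median of 531 in hypertrophy, and 906, 296, 238, 218 and 281 in wild type. High and low arrays occurred in every group: failure replicate 3 was as low as most wild type arrays, and wild type replicate 1 was nearly as high as failure replicate 1. The log2 difference of Pdk4 was 1.07 ± 0.61 in failure against wild type (SE, 95% interval -0.225 to 2.355, adjusted p = 0.583), 0.55 ± 0.48 in hypertrophy against wild type (-0.457 to 1.556, adjusted p = 0.965) and 0.52 ± 0.57 in failure against hypertrophy (adjusted p = 0.816). When single arrays were left out, the difference of failure against wild type ran from 0.563 to 1.84. The SD of Pdk4 on the log2 scale was 1.362 in failure, 0.869 in hypertrophy and 0.834 in wild type, the highest of the 26 tested genes in each group.

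Pdk2, an isoform found in most tissues, was measured on the second array type with 282, 291 and 438 in failure, 255 to 411 with a median of 286 in hypertrophy, and 264, 263, 242, 293 and 357 in wild type. Failure replicate 3 alone lay above the wild type arrays, and the log2 difference was 0.23 ± 0.17 in failure against wild type (SE, adjusted p = 0.627). Without failure replicate 3 this difference was 0.026. Pdk1, a kinase isoform known as a target of hypoxia-inducible factor, had 191 to 262 in failure, 140 to 299 in hypertrophy and 164 to 194 in wild type, with 0.31 ± 0.19 in failure against wild type (adjusted p = 0.598).

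Pyruvate carboxylase (Pcx) refills the cycle by making oxaloacetate from pyruvate. Its signal was 310, 312 and 285 in failure, 226 to 293 with a median of 254 in hypertrophy, and 240, 203, 290, 279 and 227 in wild type. Failure replicates 1 and 2 lay above all arrays of both other groups, and replicate 3 lay among them. The log2 difference was 0.30 ± 0.13 in failure against wild type (SE, 95% interval 0.032 to 0.564, adjusted p = 0.41), 0.24 ± 0.12 in failure against hypertrophy (adjusted p = 0.511) and 0.06 ± 0.10 in hypertrophy against wild type (adjusted p = 0.984). A further Pcx probe set was too dim to be tested. Of 8 control probe sets that also target Pcx, 7 had overlapping failure and wild type arrays. The other, on the first type, had 329 to 332 in failure and 341 to 387 in wild type. That is opposite to the main probe set. Most of the 8 had a lower mean in failure than in wild type. On the first type the means were 280 against 316, 331 against 361, 1058 against 1132 and, the other way, 319 against 281. On the second type they were 74.9 against 75.7, 293 against 345, 1096 against 1214 and, the other way, 131 against 127. Me1, the cytosolic malic enzyme that makes NADPH, had 132, 161 and 82.5 in failure, 63.7 to 263 with a median of 129 in hypertrophy, and 117, 84.7, 129, 111 and 98 in wild type. The failure arrays of Me1 lay on both sides of the wild type arrays, with a log2 difference of 0.17 ± 0.32 in failure against wild type (SE, adjusted p = 0.899).

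The malate-aspartate shuttle needs a malate dehydrogenase and an aspartate aminotransferase on each side of the inner mitochondrial membrane. Got2, the mitochondrial aminotransferase, had 305, 203 and 184 in failure, 191 to 295 with a median of 257 in hypertrophy, and 197, 323, 292, 218 and 248 in wild type. Its groups overlapped and its log2 difference was -0.16 ± 0.18 in failure against wild type (SE, adjusted p = 0.821). A further Got2 probe set was too dim to be tested, at 30.9 to 52.3 in failure, 25.0 to 57.5 in hypertrophy and 35.0 to 55.2 in wild type. The cytosolic ends were not tested. Got1 had 78.2, 67.6 and 69.3 in failure, 35.6 to 90.9 with a median of 61.2 in hypertrophy, and 70.9, 69.9, 57.6, 80 and 67.2 in wild type. Mdh1 had 98.1, 116 and 96.9 in failure, 52.1 to 108 with a median of 98.6 in hypertrophy, and 94.4, 88.5, 77.6, 98.4 and 87.6 in wild type, and its second probe set lay at 15.9 to 19.1 in failure, 14.2 to 37.8 in hypertrophy and 16.3 to 22.1 in wild type. The groups overlapped for both genes.

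In failure against wild type, limma called 0 of the 26 genes, where 0.25% of all 13984 tested probe sets were called. At an unadjusted p under 0.05 there were 3 genes, Cs and Idh3a lower and Pcx higher. That is 2 of 26 lower, where 3.45% of all tested probe sets were lower at that p, and 1 of 26 higher, where 7.99% were higher. Groups did not overlap for 1 gene, Cs, lower in failure, and for none in the other direction, where 4.34% of all tested probe sets did not overlap downward and 9.17% upward. Of the 26 differences 16 were negative and 10 positive, 61.5% negative against 40.3% of all tested probe sets. The background depended on the scaling: with quantile scaling 65.4% of the set and 51.0% of all tested probe sets were negative, and with median scaling 73.1% and 58.3%. At an unadjusted p under 0.05, median scaling gave 4 lower genes (Cs, Idh3a, Suclg1 and Fh1) and 0 higher, where 8.18% of all were lower and 4.23% higher, the opposite order to the unscaled values. Quantile scaling gave Cs and Idh3a lower and 0 higher, where 6.01% of all were lower and 5.69% higher, so that Pcx met that p in neither. The median was -0.083 without scaling, against 0.05 over all tested probe sets. The 95% interval lay within a log2 change of 1 either way for 25 of the 26, Pdk4 being the exception, and within 0.5 for 7. With array weights, which give less weight to arrays that deviate from their group, 7 genes were called: Cs, Idh3a, Fh1, Suclg1, Sucla2 and Dlat lower and Pdk4 higher, with adjusted p of 0.00477 for Cs and 0.0311 for Pdk4. The same weights called 1430 of all 13984 probe sets (10.2%), 478 lower and 952 higher.

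In hypertrophy against wild type, limma called 0 of the 26 genes (0.0858% of all tested probe sets), and 0 had an unadjusted p under 0.05, where 2.68% of all were lower and 4.44% higher. The 4 genes of smallest p were Cs, Sdhb, Ogdh and Idh3g, with adjusted p from 0.96 to 0.965. Differences were negative for 17 genes and positive for 9, 65.4% negative against 48.0% of all tested probe sets. With quantile scaling these shares were 53.8% and 52.3%, and with median scaling 65.4% and 54.9%. The unscaled median was -0.054, against 0.007 over all tested probe sets, with a range from -0.23 (Cs) to 0.55 (Pdk4). All 26 genes had overlapping groups, where 0.136% of all tested probe sets did not overlap downward and 0.3% upward. The 95% interval lay within 1 for 25 genes and within 0.5 for 17.

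In failure against hypertrophy, the direct comparison of both stages of the transgenic hearts, limma called 0 of the 26 genes (0.0143% of all tested probe sets). None had an unadjusted p under 0.05, where 3.02% of all were lower and 6.34% higher, and none had groups that did not overlap (0.686% downward and 1.47% upward over all). The genes of smallest p were Pcx, Idh3a, Fh1 and Cs, with adjusted p from 0.511 to 0.707. The median difference was -0.021, against 0.04 over all tested probe sets, with 17 negative and 9 positive. That is 65.4% negative against 41.5% of all tested probe sets, or 65.4% and 49.5% with quantile scaling and 69.2% and 55.6% with median scaling. The 3 comparisons share arrays by pairs, so their values for a gene are not independent.

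**Figure D2:**
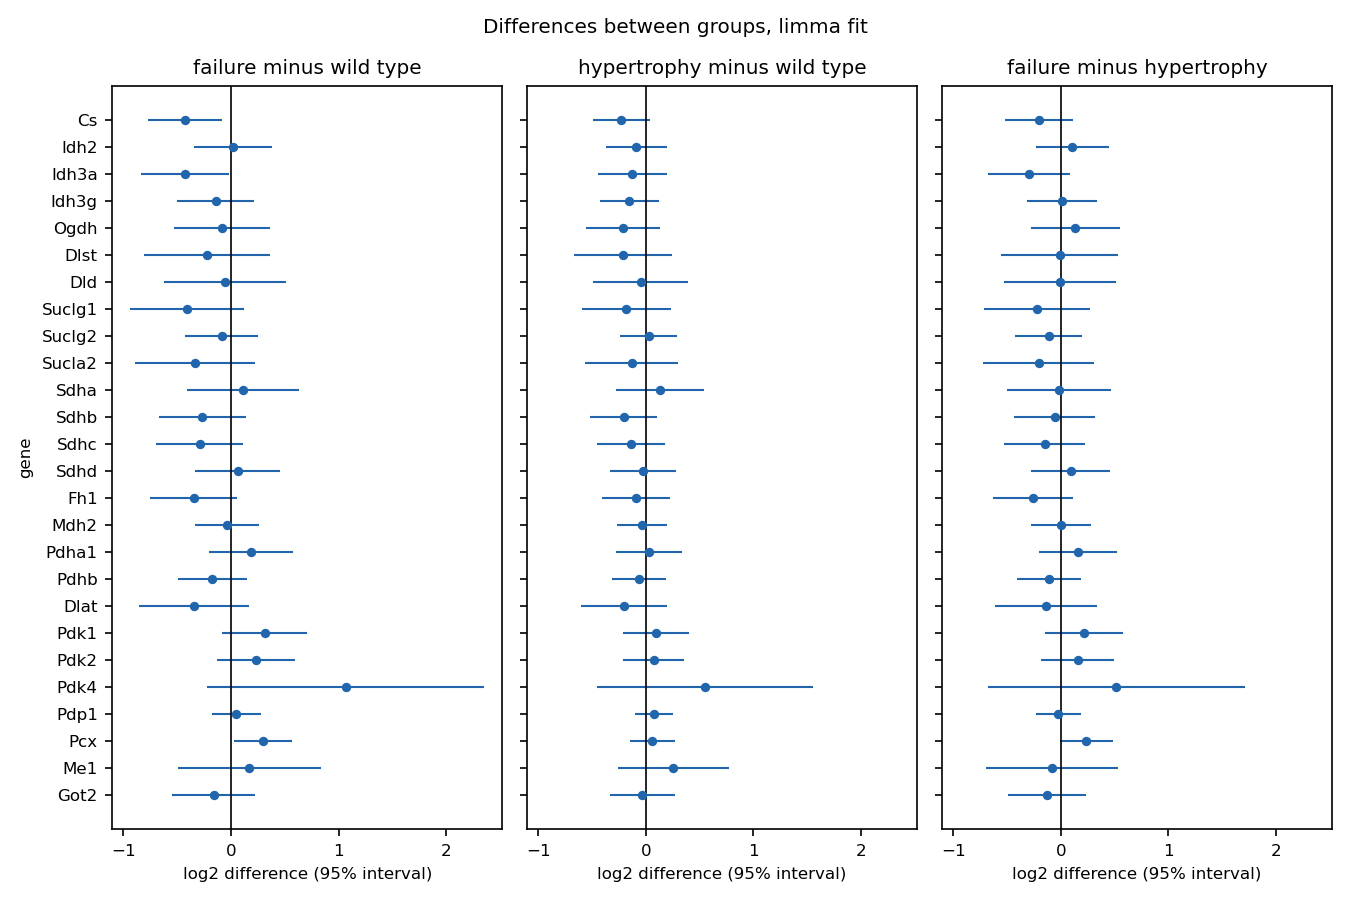
Log2 difference between group means (horizontal axis) for the 26 tested genes, as points with 95% intervals from limma, for failure against wild type, hypertrophy against wild type and failure against hypertrophy. Most points lie within 0.5 of 0, and Pdk4 stands out with the widest intervals, up to 2.355.

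Arrays of 1 group differed from each other in the set as a whole: the SD of the set's median between arrays of a group was 0.193 on the log2 scale. This is the spread of single arrays and not the error of a difference between groups. Measured from the wild type mean of each gene, the median deviation of the 26 genes was -0.216, -0.085 and 0.07 in the failure arrays. It was -0.506 in hypertrophy replicate 1 and 0.263 in hypertrophy replicate 7, with -0.162 to 0.133 in the other hypertrophy arrays, and -0.16 to 0.151 in wild type. Failure replicate 1 held the lowest failure signal for 18 of the 26 genes and failure replicate 3 the highest for 22. Hypertrophy replicate 1 was lowest for 19 genes and hypertrophy replicate 7 highest for 16, and in wild type replicate 2 was lowest for 13 and replicate 5 highest for 13.

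Several measures moved with these arrays. Hypertrophy replicate 1 had the lowest median signal of the first array type, 91.8, and over all tested probe sets its median deviation was -0.117. It also had the lowest cardiomyocyte and fibroblast marker sums, 55892 and 3572. The next lowest cardiomyocyte sums were 59691, 61934 and 61943, in hypertrophy replicates 6 and 4 and wild type replicate 2. Set medians there were -0.162, -0.131 and -0.16. Failure replicate 1, at -0.216, had a sum of 65979, and hypertrophy replicate 7, at 0.263, had 64258. Hypertrophy replicate 7 had the Gapdh ratio of 0.0487, and failure replicates 1 and 2, which were low for most genes of the set and high for Pdk4 and Pcx, had the high fibroblast marker sums of 9137 and 9494, while failure replicate 3 had 5037 and the highest erythroid sum, 10383. The atrial sums were above wild type in all 3 failure arrays. The Gapdh ratio did not go 1 way with the set: hypertrophy replicate 6, with the second lowest ratio of 0.468, had a median deviation of -0.162. The part of these measures in the results was not tested, beyond the fits with a ratio as a covariate and without single arrays. The set's median difference in failure against wild type was -0.012 without failure replicate 1, -0.071 without replicate 2 and -0.13 without replicate 3. It was 0.005 with the Actb ratio as a covariate and -0.077 with the Gapdh ratio. On the first array type the Actb ratio was 0.765 to 1.1 in failure and 0.545 to 0.752 in wild type. With no overlap, this covariate and the group difference cannot be fully told apart. Of the 16 genes with a negative difference in failure against wild type, 10 (Idh3a, Idh3g, Ogdh, Dlst, Dld, Suclg2, Sdhb, Sdhc, Mdh2 and Dlat) had one smaller by over 1.5 times without failure replicate 1, and in 3 of these (Ogdh, Dld and Mdh2) it was positive. Leaving out failure replicate 3 instead, the differences of these 16 genes all lay farther below 0, except that of Got2, at -0.016. Without hypertrophy replicate 1 the median in hypertrophy against wild type was 0.018, and without hypertrophy replicates 6 and 7 it was -0.086.

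**Figure D3:**
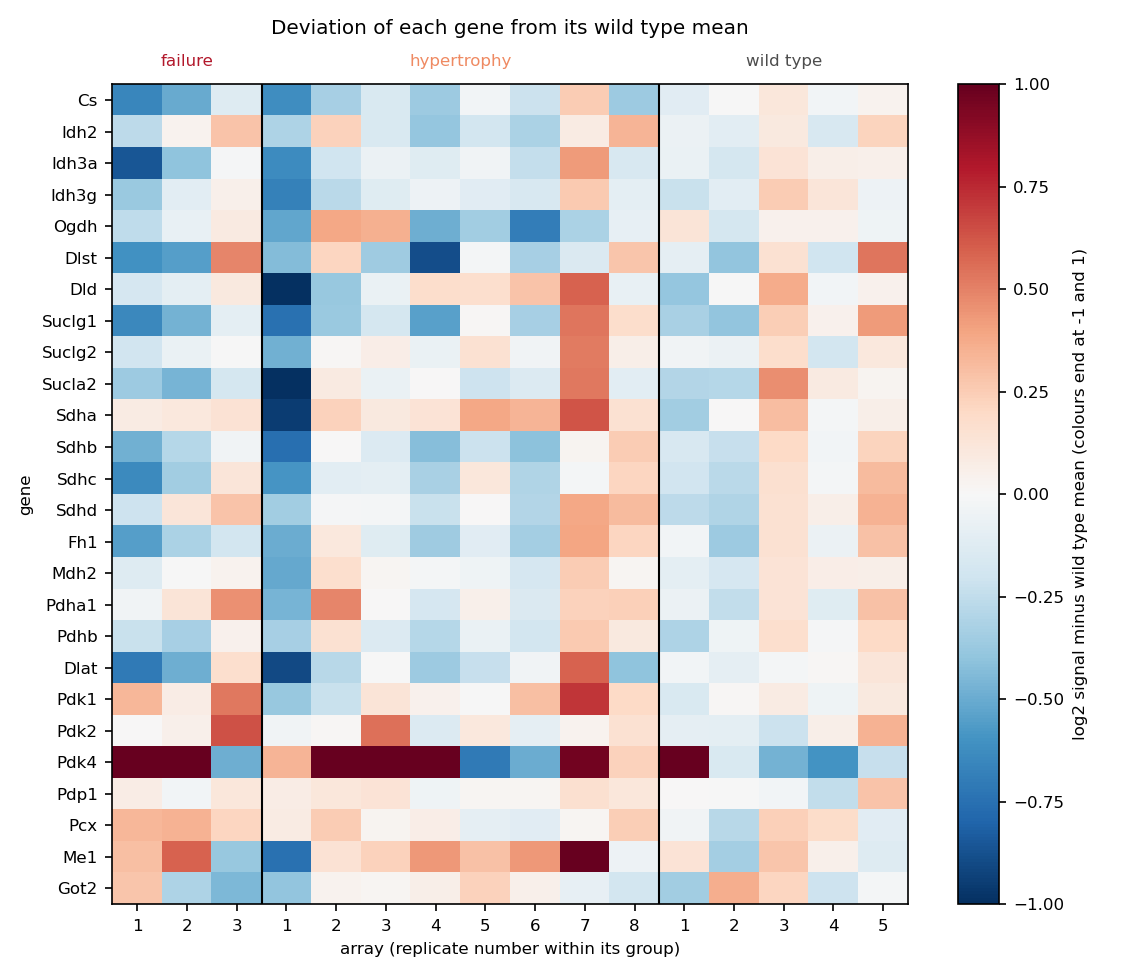
Deviation of each of the 26 tested genes (rows) from its wild type mean, in log2 units, on each array (columns: failure, hypertrophy, wild type), with blue for lower and red for higher and colours ending at 1 either way. The column of hypertrophy replicate 1 is blue for 23 genes, and the Pdk4 row changes between dark red and blue within every group.

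**Figure D4:**
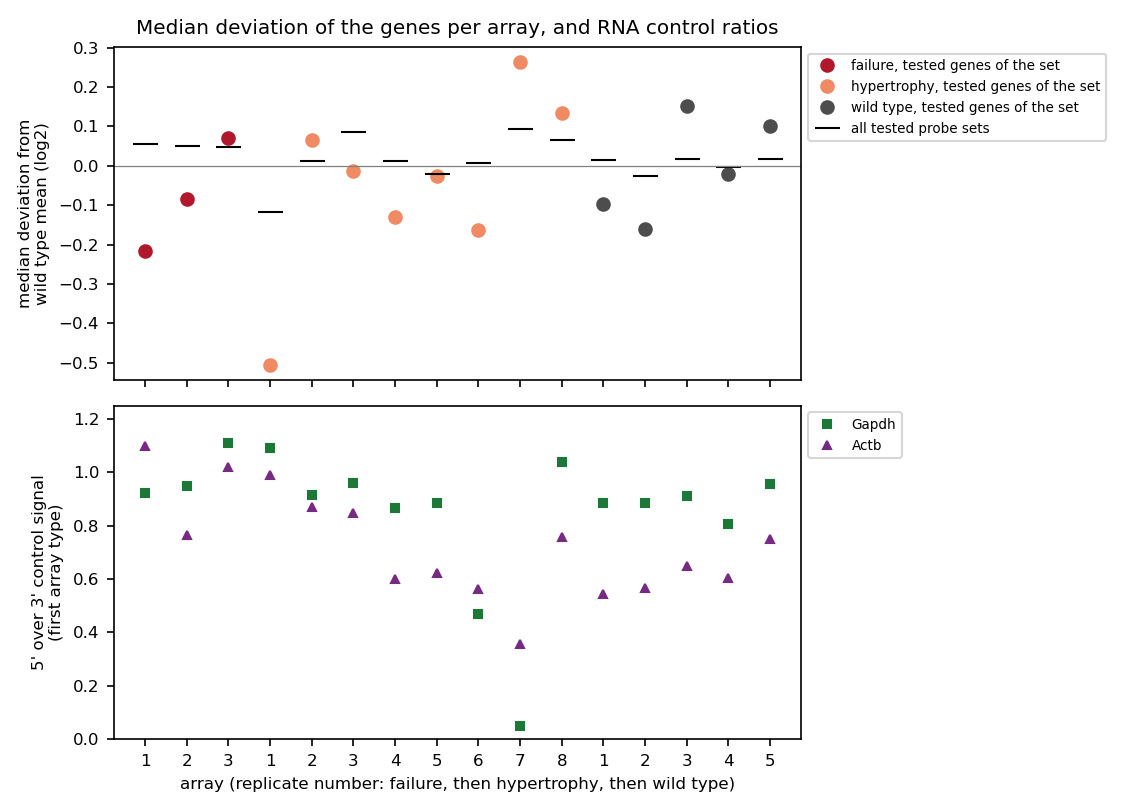
Above, the median deviation of the 26 tested genes from their wild type means (log2, points) and that of all tested probe sets (dashes) on each array; below, the ratio of 5' to 3' control signal for Gapdh and Actb on the same arrays. The points run from -0.506 to 0.263 while the dashes stay between -0.117 and 0.093, and hypertrophy replicate 7, the highest point, has the lowest Gapdh ratio, while replicate 6, with a ratio of 0.468, lies low at -0.162.

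The spread within groups was larger for these genes than for the typical probe set. The median SD of log2 signal was 0.239 in failure, 0.293 in hypertrophy and 0.214 in wild type, against 0.164, 0.253 and 0.171 over all tested probe sets. In 21 of the 26 genes the SD was larger in hypertrophy than in wild type, and in 15 larger in failure than in wild type. No such share over all tested probe sets is given here. Their median SD was also larger in hypertrophy (0.253) than in wild type (0.171), so that excess was not particular to the set. For 8 of the genes, 9 further probe sets were tested, and in failure against wild type 4 of them had the sign of the main probe set and 5 the other sign, with none called.

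In 3 lists of related genes limma called 0 in any comparison. At an unadjusted p under 0.05 there were 2 genes of the enzyme list and 1 of the carrier list in each comparison, and 2, 2 and 1 of the regulator list in failure against wild type, hypertrophy against wild type and failure against hypertrophy. Over all tested probe sets 11.4%, 7.12% and 9.36% met that p in either direction in these comparisons, and with 17, 14 and 9 tested genes in the lists nothing is read from these counts. Of 31 other enzymes of the pathway and its branches 26 had a probe set and 17 were tested, with a median of 0.013 in failure against wild type. Ldhb, the lactate dehydrogenase subunit that predominates in heart, had 1343 to 2972 in failure, 1979 to 3031 in hypertrophy and 2916 to 3641 in wild type, a log2 difference of -0.85 ± 0.21 in failure against wild type (SE, adjusted p = 0.117). Bckdhb, a subunit of the branched-chain ketoacid dehydrogenase, had 110 to 148 in failure, against 170 to 224 in wild type, without overlap, and -0.73 ± 0.24 (adjusted p = 0.262). In hypertrophy against wild type the smallest p-values were those of Acly, the cytosolic citrate lyase, at 0.24 ± 0.09, and Ldhb, at -0.38 ± 0.16 (SE, adjusted p = 0.96 for both).

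Among 19 mitochondrial and plasma membrane carriers, 14 of the 18 with a probe set were tested. Of these, 12 had negative differences in failure against wild type and 10 in hypertrophy against wild type, with medians of -0.186 and -0.137. Over all tested probe sets 40.3% and 48.0% were negative in these comparisons, or 58.3% and 54.9% with median scaling. With 14 genes, nothing is read from the carrier counts. Slc25a3, the phosphate carrier, had 1422 to 2472 in failure, 1602 to 3226 in hypertrophy and 2625 to 3193 in wild type, and -0.48 ± 0.21 in failure against wild type (SE, adjusted p = 0.42). Slc25a11, the 2-oxoglutarate carrier of the malate-aspartate shuttle, had -0.31 ± 0.15 (adjusted p = 0.477). Slc25a22, a glutamate carrier, had -0.38 ± 0.12 in failure against hypertrophy (adjusted p = 0.411), and its further probe set -0.11 ± 0.15. Slc25a1, the citrate carrier, had -0.29 ± 0.13 in hypertrophy against wild type (adjusted p = 0.96), and its further probe set, of the other sign, 0.04 ± 0.09.

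Of 14 transcriptional regulators of these genes 13 had a probe set and 9 were tested. Ppara, the fatty acid receptor that drives Pdk4 and fatty acid oxidation, had 199 to 242 in failure, 189 to 302 in hypertrophy and 258 to 333 in wild type, with -0.46 ± 0.14 in failure against wild type (SE, adjusted p = 0.218), and its further probe set -0.09 ± 0.18. Nrf1, nuclear respiratory factor 1, had -0.66 ± 0.18 in failure against wild type (adjusted p = 0.109), but its further probe sets gave 0.48 ± 0.17 and -0.24 ± 0.10, so that its probe sets disagreed in sign. Foxo3, a forkhead factor, had 181 to 797 in hypertrophy, against 145 to 363 in wild type, and 0.98 ± 0.33 (adjusted p = 0.96). The wide hypertrophy range of Foxo3 spanned the failure arrays, at 185 to 275, as well.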

How the data were processed

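The authors deposited 1 intensity per probe set and array, on a linear scale, for 16 arrays of each of 2 Affymetrix types. The sources used here do not state the scaling or summary behind these deposited intensities. They were used as deposited because 1 of 2 measures sufficed under a limit of 5%: trimmed means varied by 4.82% (first type) and 3.31% (second). The medians varied by 6.60% on the first type, above that limit, and by 4.65% on the second. Values under the 20th percentile of a type (39.5 and 27.5) were raised to it and log2 was taken, which understates differences of dim probe sets. Probe sets at or above their array's median on at least 3 arrays, controls left out, were tested: 6980 of 12488 and 7004 of 12477. Each type was fitted with limma 3.58.1 (R 4.3.3), 1 model over its 16 arrays, two-sided, with Benjamini-Hochberg adjustment per type and comparison. The scripts were tested on simulated data. Precision is limited by the number of arrays.

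Names come from the platform annotation, updated by gene identifier to GRCm38.p6 (12 and 20 symbols changed). With controls included, 10855 and 10603 probe sets had 1 gene, 396 and 178 several, and 1193 and 1652 none. Start regions are RefSeq's, on GRCm38.p6. Figures were drawn with matplotlib 3.10.9.

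The members, the other lists and the tests were chosen with earlier results of these data known, so list counts are descriptions. Values per array are given for a list of 14 genes (gates, regulators, shuttle ends) and for the 4 genes of smallest p in each comparison. Of the other lists, the 2 genes of smallest p per list and comparison were eligible for naming, and most are named. Alternatives were other scalings, floors, filters, probe sets, variance models, array weights, covariates for RNA quality, a replicate block, only the groups compared and leaving out each array.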

Additional observations from a re-analysis of the deposited data

Results flagged for a closer look

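The 26 tested genes, and their median deviation per array, were checked in the hypertrophy and in the wild type group for 1 array far from the others, by the gap to its nearest neighbour as a share of the group's range. Of 54 such sets of values 4 held such an array, where chance alone is taken to give about 1 in 20. The sets share the same arrays, and hypertrophy replicate 1 was lowest for 19 of the 26 genes, so they are not independent. The count is therefore not compared with that rate. Sucla2 had 244 in hypertrophy replicate 1, against 476 to 792 in the other hypertrophy arrays. Sdha had 88.7 in the same array, against 184 to 265. Pdk2 had 411 in hypertrophy replicate 3, against 255 to 313. Pdk4 had 906 in wild type replicate 1, against 218 to 296 in the other wild type arrays.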

How the results depend on the processing

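Each result was recomputed under 30 other settings, 16 of which left out 1 array. No gene of the set was called under any of them except with array weights, where 7 were called in failure against wild type. Among the 39 differences of individually named genes, none of at least its standard error changed sign under any setting, and 16 smaller ones, for which no direction is claimed, did so in 54 of 1170 alternatives. With array weights 4 of the 39 passed the threshold, all in failure against wild type: Cs (-0.493), Fh1 (-0.389), Idh3a (-0.484) and Pdk4 (1.69). The weights of the first type ranged from 0.253 (hypertrophy replicate 1) to 3.45 (failure replicate 2), so that this result leans on 1 of 3 failure arrays. The labels do not say whether replicate numbers pair samples. Deviations of same-numbered arrays from their group means correlated at -0.191 to 0.363. With so few arrays per group, these correlations cannot show whether same-numbered samples were handled together. With a replicate block 0 genes were called, and the median difference was -0.069 in failure and -0.127 in hypertrophy, each against wild type. Scaling each array to a common median gave -0.177 for the median difference in failure against wild type, against -0.083 without it.

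The main limits are the 3 failure arrays, hypertrophy arrays of poor control ratios, probe sets of 1 gene that differ in sign, and 5 genes, among them Mdh1 and Got1, that were too dim to test. The Actb ratio averaged highest in failure, and with it as a covariate the failure differences of Cs and Idh3a were -0.207 and -0.158. On the first array type this ratio was higher in every failure array than in any wild type array. The covariate and the group difference therefore cannot be fully told apart there. For failure against wild type, 7 of the 26 intervals lay within 0.5 either way, and for the other genes the interval reached beyond a log2 change of 0.5 in at least 1 direction.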
